A study of Mus musculus with 6 samples.

Results

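Transcripts of Bik and of 9 other genes of the Bcl2 family were examined in CD4+CD25+ T cells of mice without HDAC9 and of wild type mice. The genes were the anti-apoptotic Bcl2, Bcl2l1, Bcl2l2 and Mcl1, the effectors Bax and Bak1, and the BH3-only genes Bik, Bcl2l11, Bid and Bad. Every probe set whose single gene symbol was one of these was taken, which gave 29 of 22626 probe sets for 9 of the 10 genes. Bax was not analysed here, since no probe set carried its symbol alone. Bik was selected on its log2 difference between the genotypes, already known to be lower in HDAC9-/- cells, so that difference is given as a description without a test. The other genes were included because they belong to the same family, a choice made with earlier results of these data known.

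The 3 HDAC9-/- samples came from mice that lack HDAC9, a deacetylase of class IIa, and the 3 control samples from wild type mice. Both groups have the strain label C57BL/6. The cells were the CD4+CD25+ fraction obtained by magnetic separation, labelled as regulatory T cells (Treg), the T cells that restrain immune responses. Each sample was hybridised to 1 expression array, and the submitters call the samples independent. A probe set is a group of short probes for 1 transcript, and its value is a log2 signal from RMA, which corrects background, brings the arrays to a common distribution and combines the probes. The sources used here do not give the deleted exons, the age and sex of the animals or the number of mice behind each sample. The standard deviations (SD) thus measure the spread between these samples. Standard errors and intervals come from limma, which draws the variance of each probe set toward a value shared by all probe sets.

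The Bcl2 family decides whether a cell opens its mitochondria to the factors that start apoptosis. The effectors Bax and Bak1 form pores in the outer mitochondrial membrane, the anti-apoptotic proteins hold them in check, and the BH3-only proteins, activated by stress or by loss of survival signals, either block the anti-apoptotic proteins or act on the effectors. In Treg, which depend on interleukin-2, Mcl1 is known to be needed for survival and Bcl2l11, which encodes Bim, to drive death when cytokine runs short. Much of this control acts on the proteins, which arrays do not measure.

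The fraction carried the transcripts of Treg. All 8 Treg markers of a fixed list were measured, and Foxp3, Il2ra and Ctla4 lay above the median of all probe sets, a log2 value of 5.76, while Ikzf2 was dimmer. The mean log2 level of this list was 9.35 to 9.46 for wild type against 9.41 to 9.58 for HDAC9-/- arrays. Singly, Il2ra differed by -0.085 and -0.19 in its probe sets, both lower in HDAC9-/- arrays without overlap (6.04% of all probe sets were). Itgae (0.22) and Tnfrsf4 (0.14) were higher without overlap (11.0% of all were). The other Treg markers overlapped in their brightest probe sets, and no Treg marker had an adjusted p below 0.05 in limma. Wild type replicate 3 stood apart, with a mean correlation of 0.991 with the other arrays against 0.994 to 0.996 for the rest and an array median of 5.69 against 5.77 to 5.81. The mean level of 8 myeloid markers was 8.03 to 8.78 for wild type against 9.01 to 9.46 for HDAC9-/- arrays, without overlap. Singly, Chil3, Ltf, S100a9, S100a8 and Cst3 did not overlap, while Csf1r, Lyz2 and Itgam did. On HDAC9-/- replicate 3 Csf1r read 7.01 and Lyz2 9.24, against 7.18 to 7.62 and 9.18 to 10.36 on wild type arrays. The 3-prime minus 5-prime control signal of Gapdh widens with RNA decay or short labelling. It was 0.026 to 0.11 for wild type against 0.15 to 0.28 for HDAC9-/- arrays, without overlap. The same measure of actin overlapped, with 0.33 to 0.46 and 0.42 to 0.60.

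Bik had less signal in HDAC9-/- Treg in all 3 of its probe sets. Bik is a BH3-only protein of the endoplasmic reticulum that binds the anti-apoptotic members. In probe set 1420362_a_at the log2 values, in the order of the replicate numbers as in all that follows, were 5.50, 5.18 and 5.22 on the 3 wild type arrays and 4.40, 4.35 and 4.38 on the 3 HDAC9-/- arrays. The HDAC9-/- arrays lay close together and every one of them was below the lowest wild type array. The means were 5.30 ± 0.17 and 4.38 ± 0.03 (SD, n = 3), a log2 difference of -0.92 with a standard error of 0.10, which is a 1.89-fold higher signal in wild type. Both means were dimmer than the array-wide median, and RMA compresses differences of dim probe sets. In bulk samples such as these, fewer cells of a type and less RNA per cell cannot be told apart.

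The brightest Bik probe set, 1449836_x_at, read 6.05, 5.93 and 6.33 on the 3 wild type arrays and 5.76, 5.43 and 5.37 on the 3 HDAC9-/- arrays. The genotypes again did not overlap, although HDAC9-/- replicate 1 lay close to the wild type range. The difference was -0.59 with a standard error of 0.14. The suffix _x_at marks a probe set with probes that may also match other transcripts.

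Probe set 1420363_at of Bik gave the smallest difference, -0.32 with a standard error of 0.08. Its values were 4.96, 5.002 and 5.13 on the 3 wild type arrays and 4.80, 4.69 and 4.65 on the 3 HDAC9-/- arrays, which did not overlap. All 3 Bik probe sets were lower in HDAC9-/- arrays without overlap, as were 6.04% of all probe sets, and since Bik was selected on this contrast nothing is read from that count. The 3 probe sets gave log2 differences between -0.92 and -0.32 for the same gene, and 1 of the 3, 1449836_x_at, had a mean above the median of all probe sets. Without wild type replicate 3 the differences were -0.96, -0.47 and -0.27 for 1420362_a_at, 1449836_x_at and 1420363_at.

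**Figure D1:**
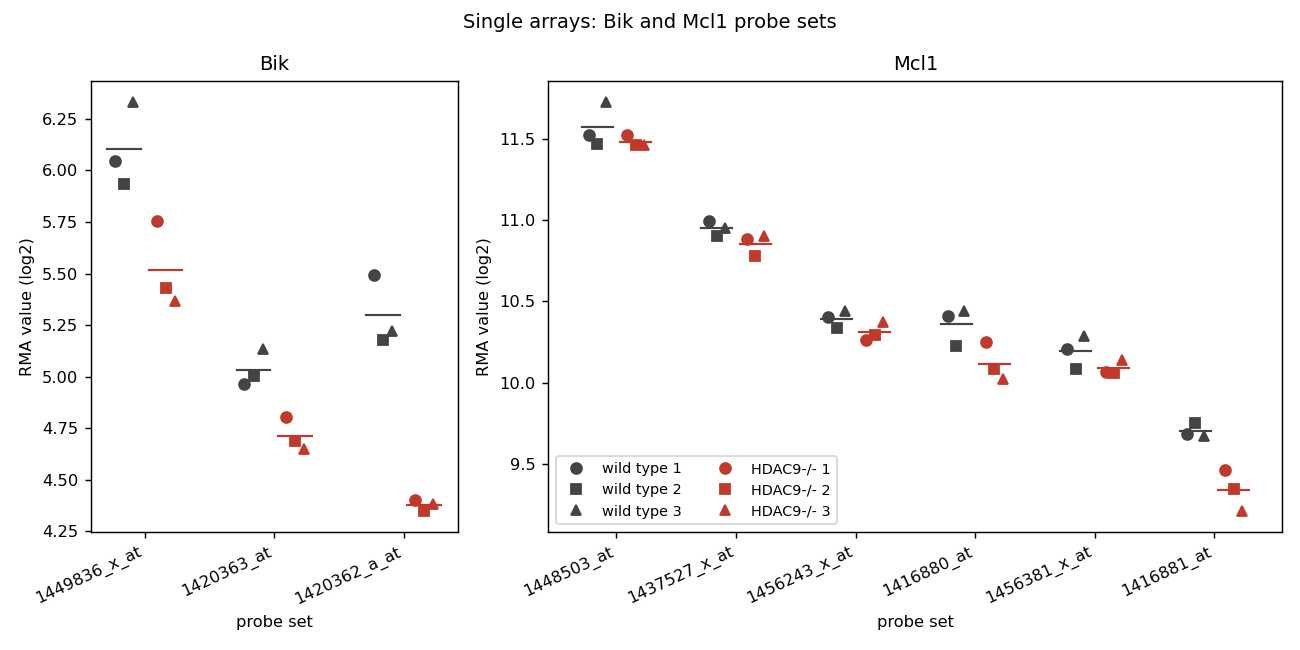
Log2 RMA values of single arrays for the 3 probe sets of Bik (left) and the 6 of Mcl1 (right), with wild type in grey, HDAC9-/- in red, a marker shape for each replicate number and a line at each mean. For Bik every HDAC9-/- array lies below every wild type array in all 3 probe sets, while for Mcl1 the genotypes are separate in 1416881_at and, narrowly, in 1437527_x_at.

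The genes whose pattern over the 6 arrays was nearest to Bik were found by the root mean square difference of centred log2 values from probe set 1449836_x_at. They were Ptp4a2, a tyrosine phosphatase, at 0.056, the F-box gene Fbxo4 at 0.10, Gdi2, a regulator of Rab GTPases, at 0.10, the T cell receptor gamma segment Trgv1 at 0.11 and the kinase gene Pdik1l at 0.11. The other Bik probe sets were farther away, at 0.17 for 1420363_at and 0.26 for 1420362_a_at. Likeness over 6 arrays of 2 genotypes is a description only.

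Among the anti-apoptotic members, the 6 Mcl1 probe sets all read lower on average in HDAC9-/- Treg, by 0.08 to 0.36 on the log2 scale, and none passed the threshold, an adjusted p below 0.05 in limma over all probe sets, which 0.0133% of all probe sets passed. Mcl1 is a short-lived protein that binds Bak1 and the BH3-only proteins. In 1416881_at the values were 9.68, 9.75 and 9.67 on the 3 wild type arrays and 9.46, 9.35 and 9.21 on the 3 HDAC9-/- arrays. The genotypes did not overlap in this probe set, the widest apart of the 6. The means were 9.70 ± 0.04 and 9.34 ± 0.13 (SD, n = 3), a difference of -0.36 with a 95% confidence interval of -0.56 to -0.16 (limma, adjusted p = 0.422). Over the alternative settings its adjusted p ran from 0.120 to 0.795.

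Mcl1 was bright in every probe set, with means between 9.52 and 11.53 over the 6 arrays. The brightest, 1448503_at, read 11.57 ± 0.14 for wild type against 11.48 ± 0.04 for HDAC9-/- arrays (SD, n = 3), a difference of -0.091 with an interval of -0.30 to 0.12. Its values overlapped, and without wild type replicate 3 the difference was -0.012. In 1416880_at the values were 10.41, 10.23 and 10.44 on the 3 wild type arrays and 10.25, 10.08 and 10.02 on the 3 HDAC9-/- arrays. HDAC9-/- replicate 1 reached into the wild type range there, and the difference of -0.24 did not pass (limma, adjusted p = 0.557). The 3 probe sets with the suffix _x_at differed by -0.094, -0.084 and -0.10. Probe sets of 1 gene measure the same RNA, so 6 negative differences are not 6 independent observations.

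Mcl1 transcription is known to respond to cytokine and NF-kappaB signals, and its upstream sequence is shown for the 1 match found to a motif of those factors. The 250 bases before the RefSeq start (chr3:95658471-95658720, GRCm38.p6, plus strand) follow, with capitals marking the match on the opposite strand to an NF-kappaB motif, GGG followed by any 2 bases and TTTCC.
Mcl1 upstream: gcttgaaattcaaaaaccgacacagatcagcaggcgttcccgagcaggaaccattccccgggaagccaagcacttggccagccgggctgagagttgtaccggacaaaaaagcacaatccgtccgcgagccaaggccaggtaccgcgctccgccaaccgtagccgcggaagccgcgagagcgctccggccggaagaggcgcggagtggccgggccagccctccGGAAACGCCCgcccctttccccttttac
The match lies 28 to 19 bases before the start. On either strand this motif was in 1.41% of the 32851 upstream windows of the same length in the RefSeq table. The table holds 13 windows for 9 of the family genes, Bax among them and Bik not, and 2 of these, of Mcl1 and Bcl2l1, had it. None of these 13 windows held the STAT motif TTCNNNGAA (7.02% of all windows), the MEF2 motif, CTA and TAG with any 4 bases between them (3.20%), or the cyclic AMP response element TGACGTCA (1.55%). MEF2 factors are known partners of class IIa deacetylases. The arrays measure transcripts, so binding at these sequences was not measured.

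Bcl2, the founding member and a target of interleukin-7 signals in T cells, has 1 probe set. Its log2 values were 7.11, 7.24 and 6.98 on the 3 wild type arrays and 6.94, 6.94 and 7.16 on the 3 HDAC9-/- arrays. The genotypes overlapped, with HDAC9-/- replicate 3 inside the wild type range. The difference was -0.098 with a 95% confidence interval of -0.33 to 0.14 (limma, adjusted p = 0.768). It ran from -0.17, without HDAC9-/- replicate 3, to -0.036, without wild type replicate 2.

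Bcl2l1 encodes Bcl-xL, which activated T cells induce. Its brightest probe set, 1420888_at, read 8.04 ± 0.08 for wild type against 7.98 ± 0.02 for HDAC9-/- arrays (SD, n = 3), a difference of -0.051 with an interval of -0.22 to 0.11 (limma, adjusted p = 0.830). Its values overlapped. The 3 other probe sets were dimmer than the array-wide median. Of these, 1426191_a_at read 4.41, 4.40 and 4.84 on the 3 wild type arrays and 4.24, 3.95 and 4.29 on the 3 HDAC9-/- arrays. The genotypes did not overlap there, and the difference of -0.39 did not pass (limma, adjusted p = 0.549). Without wild type replicate 3, its highest array, the difference was -0.24. The dim 1420887_a_at differed by 0.082 and the dim 1426050_at by -0.19, both with overlap and without passing.

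Bcl2l2 encodes Bcl-w, an anti-apoptotic protein related to Bcl-xL. Its brightest probe set, 1423572_at, had a difference of -0.088 and an interval of -0.34 to 0.16, and the 3 dimmer probe sets had differences of 0.06 to 0.14. The genotypes overlapped in all 4, and none passed (limma, adjusted p = 0.651 to 0.863).

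Bak1, the effector measured here, sits in the outer mitochondrial membrane of living cells. Its brighter probe set, 1418991_at, read 7.77, 7.59 and 7.62 on the 3 wild type arrays and 7.71, 7.73 and 7.61 on the 3 HDAC9-/- arrays. The values were intermixed. The difference was 0.027 with an interval of -0.16 to 0.21 (limma, adjusted p = 0.919). The dimmer 1425716_s_at, whose suffix marks probes shared by several transcripts, differed by -0.12 (adjusted p = 0.769).

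Of the BH3-only genes other than Bik, Bcl2l11 had negative differences in all 5 probe sets, from -0.19 to -0.016, and the genotypes overlapped in every one. Its protein Bim binds all anti-apoptotic members and is the main killer of T cells deprived of cytokine. The brightest probe set, 1435448_at, read 9.04, 8.94 and 8.68 on the 3 wild type arrays and 8.83, 8.81 and 8.81 on the 3 HDAC9-/- arrays. The HDAC9-/- arrays lay within the wild type range. The difference was -0.071 with an interval of -0.31 to 0.17 (limma, adjusted p = 0.840).

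Probe set 1456005_a_at of Bcl2l11 had the widest scatter of the family. It read 8.70, 8.997 and 8.28 on the 3 wild type arrays and 8.13, 8.65 and 8.91 on the 3 HDAC9-/- arrays. Its difference of -0.10 with a standard error of 0.24 turned to 0.12 without HDAC9-/- replicate 1 and to 0.068 without wild type replicate 2. The sign of this value thus turned on single samples.

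FOXO transcription factors are known to induce Bcl2l11, and 1 of its upstream windows held their motif GTAAACA, as did 3.17% of all windows. The 250 bases before that start (chr2:128125788-128126037, GRCm38.p6, plus strand) are given with the match in capitals, 227 to 221 bases before the start.
Bcl2l11 upstream: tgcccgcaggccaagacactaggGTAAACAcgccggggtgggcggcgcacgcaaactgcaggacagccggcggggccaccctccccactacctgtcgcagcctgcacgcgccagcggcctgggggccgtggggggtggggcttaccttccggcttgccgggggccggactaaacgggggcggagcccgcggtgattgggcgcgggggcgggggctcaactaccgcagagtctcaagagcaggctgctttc
None of the other 12 family windows held this motif. In their brightest probe sets the FOXO genes themselves differed by 0.16 for Foxo1, without overlap, and by -0.016 for Foxo3, with overlap, and neither passed. The other Foxo1 probe sets differed by -0.27 to -0.031 and those of Foxo3 by -0.029 to 0.060.

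Bid, which caspases cleave to link death receptors to mitochondria, gave opposite signs in its probe sets. The brighter 1417045_at read 8.02, 7.95 and 7.98 on the 3 wild type arrays and 8.19, 7.99 and 7.97 on the 3 HDAC9-/- arrays, which overlapped. Its difference was 0.067 with an interval of -0.13 to 0.26 (limma, adjusted p = 0.807). The dimmer 1448560_at read 5.58, 5.66 and 5.92 on the 3 wild type arrays and 5.40, 5.55 and 5.13 on the 3 HDAC9-/- arrays. These values did not overlap, by a narrow gap, and the difference of -0.35 did not pass (limma, adjusted p = 0.549).

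Bad, which growth factor kinases hold inactive by phosphorylation, had differences of 0.052 in 1416582_a_at and 0.035 in 1416583_at, with overlapping genotypes and adjusted p of 0.874 and 0.911 (limma). Its single arrays ran from 6.46 to 6.78. The intervals of both probe sets lay between -0.18 and 0.28.

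**Figure D2:**
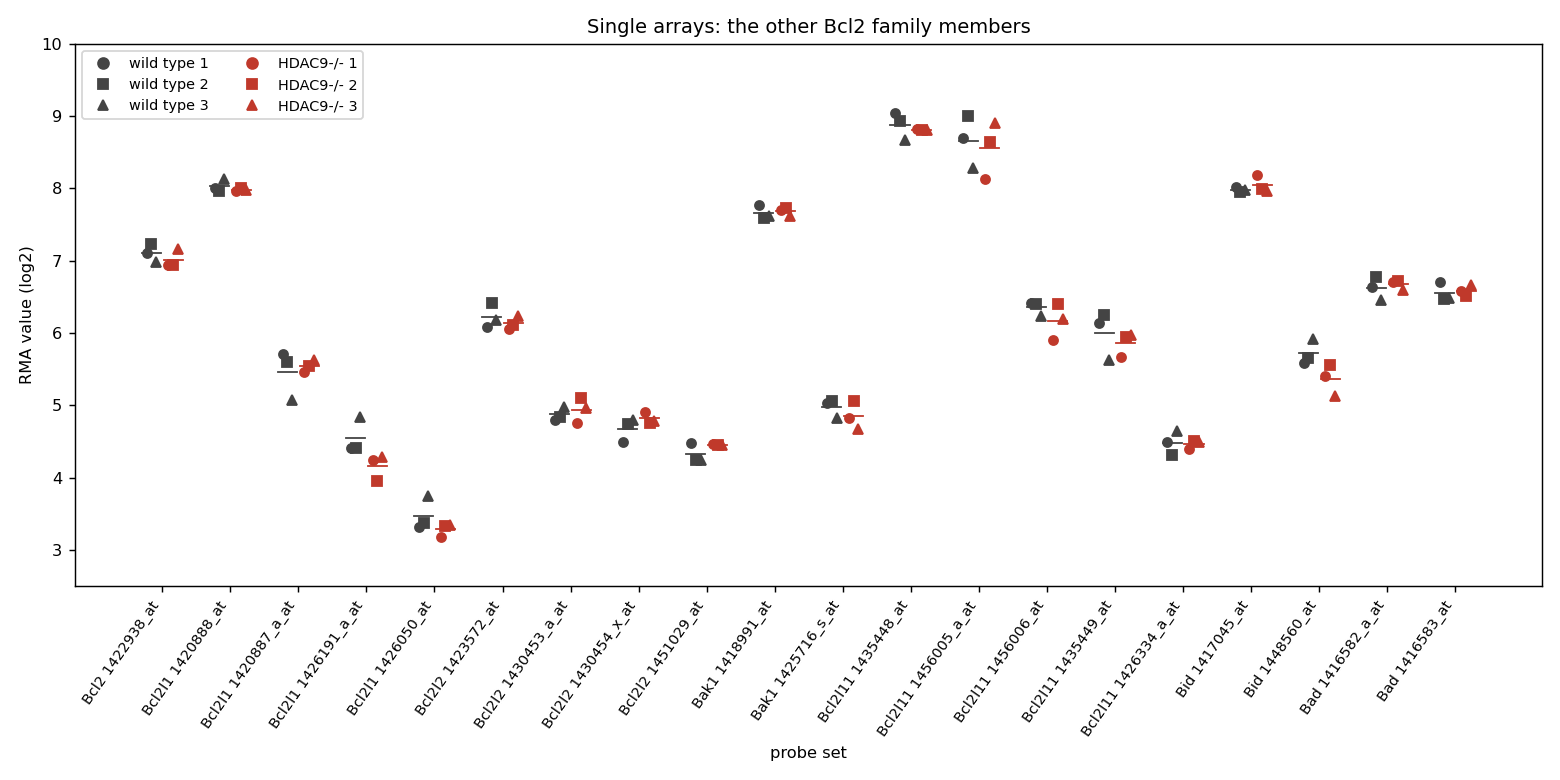
Log2 RMA values of single arrays for the 20 probe sets of the members other than Bik and Mcl1, with wild type in grey, HDAC9-/- in red, a marker shape for each replicate number and a line at each mean. The genotypes overlap in 18 of them and are separate, lower in HDAC9-/-, in Bcl2l1 1426191_a_at and Bid 1448560_at.

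By role, the anti-apoptotic members had negative differences in 11 of 15 probe sets with a median of -0.091, and the BH3-only members without Bik in 6 of 9 with a median of -0.071. Of the 11 negative anti-apoptotic probe sets 6 were of Mcl1 and 3 of Bcl2l1. Of the 6 negative BH3-only probe sets 5 were of Bcl2l11. With the brightest probe set of each gene, all 4 anti-apoptotic genes and 1 of the 3 BH3-only genes other than Bik, Bcl2l11, had negative differences. Over all 22626 probe sets 47.8% had a negative difference and the median was 0.0078. With the brightest probe set of each gene on the array, 46.0% of 12393 were negative with a median of 0.013. With array medians aligned, 55.1% of all probe sets were negative with a median of -0.018, while the counts by role stayed at 11 of 15 and 6 of 9. Of the 26 probe sets without Bik, 0 passed the adjusted threshold in limma (adjusted p = 0.422 to 0.965) and 4, all lower, had an unadjusted p below 0.05, namely 1416880_at and 1416881_at of Mcl1, 1426191_a_at of Bcl2l1 and 1448560_at of Bid. Over the array 0.0133% of probe sets passed, and 3.23% were lower at an unadjusted p below 0.05. The genotypes did not overlap, with HDAC9-/- lower, in 4 of the 26 probe sets, and in 6.04% of all. They did not overlap with HDAC9-/- higher in 0 of the 26 and in 11.0% of all. In either direction 17.0% of all probe sets did not overlap.

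**Figure D3:**
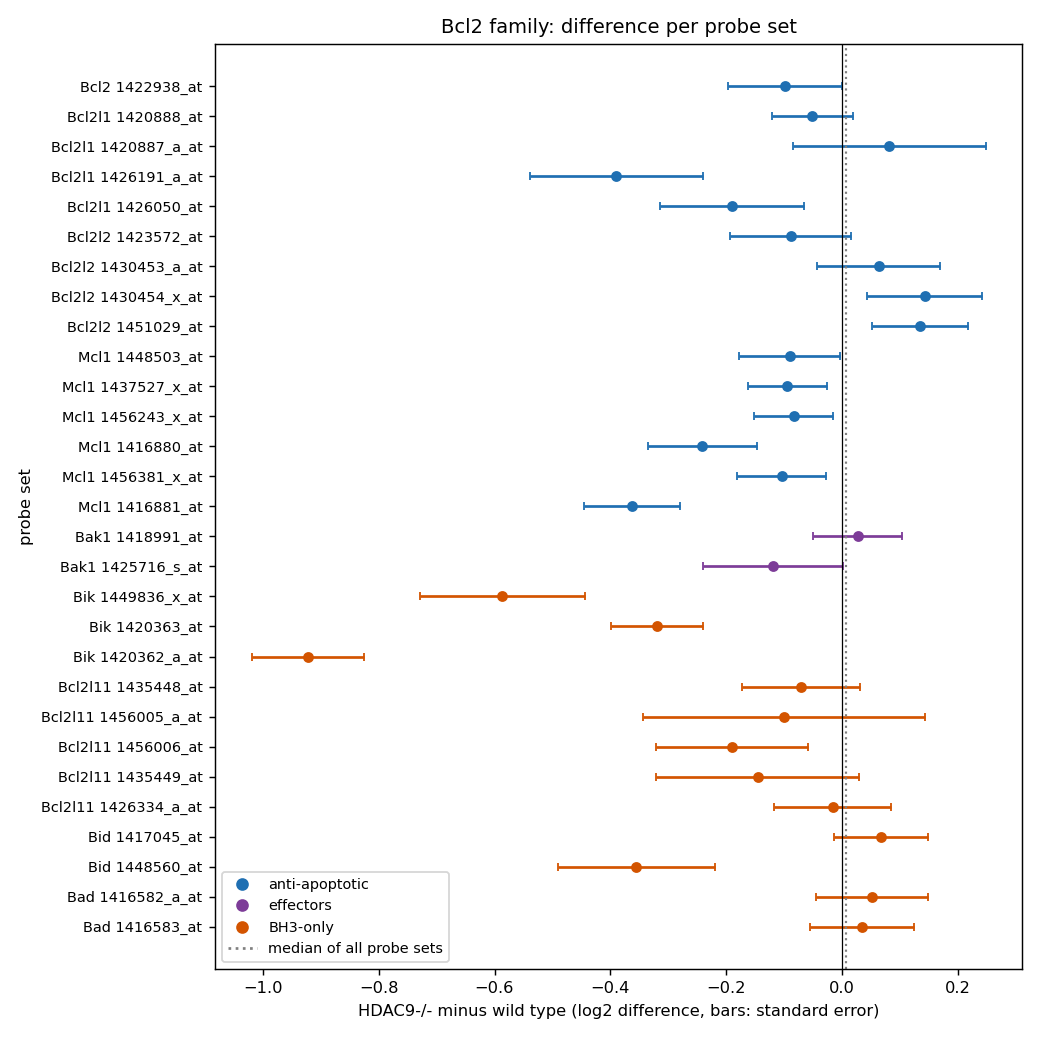
Log2 difference, HDAC9-/- minus wild type, of each of the 29 probe sets (points) with its standard error (bars), coloured by role, with the median of all probe sets as a dotted line. The 3 Bik probe sets lie at -0.92 to -0.32, and those of the other members between -0.39 and 0.14.

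In both genotypes the members' spread between arrays was of like size to many of these differences. The SD of single probe sets ran from 0.036 to 0.36 in wild type, with a median of 0.13, and from 0.0094 to 0.40 in HDAC9-/- samples, with a median of 0.081. It was larger in wild type for 18 of 29 probe sets. Wild type replicate 3 was the highest wild type array for 13 of the 29 and the lowest for 9, and wild type replicate 2 the highest for 7 and the lowest for 14. Of the 26 probe sets other than those of Bik 18 had negative differences, and 17 to 20 when single arrays were left out, with the 20 without wild type replicate 3.

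Outside the named members, none of the other pro-apoptotic genes of the family passed, where 0.0133% of all probe sets did. All 6 measured of 7 listed had positive differences, with a median of 0.16. In this list and those that follow each gene stands with its brightest probe set. A measured gene is one with a probe set that carries its symbol alone. The shares given beside the counts are over all probe sets. Over the array, 46.0% of the brightest probe sets per gene had a negative difference. Pmaip1, which encodes the Mcl1-binding protein Noxa, read 6.95, 6.91 and 7.32 on the 3 wild type arrays and 7.48, 7.30 and 7.54 on the 3 HDAC9-/- arrays. Its values overlapped, and the difference of 0.38 did not pass (limma, adjusted p = 0.530). Bbc3, which encodes Puma, differed by 0.21 and the mitophagy gene Bnip3 by 0.20, both without overlap and without passing. The genotypes did not overlap in 2 of the 6 genes, both higher in HDAC9-/- samples, where 11.0% of all probe sets were higher without overlap. Of the other anti-apoptotic genes only Bcl2l10 had a probe set that carried its symbol alone, a dim one that differed by -0.087.

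Genes related to the family had positive differences in all 5 measured of 6, with a median of 0.14. The co-chaperone gene Bag3, whose protein binds Bcl2, read 7.21 ± 0.12 for wild type against 7.63 ± 0.10 for HDAC9-/- arrays (SD, n = 3), a difference of 0.41 that did not pass (limma, adjusted p = 0.403). Bcl2l15 differed by 0.45 at a level dimmer than the array-wide median, and Bag1 by 0.14.

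Downstream of the mitochondria, 11 of 14 measured genes had positive differences, with a median of 0.11. Of these genes 0 passed, where 0.0133% of all probe sets did. None of the 14 was dimmer than the array-wide median, and of all probe sets at or above it 42.0% had a negative difference. Xiap, which inhibits caspases, was lower by 0.23 in its brightest probe set, at 8.87 ± 0.03 for wild type against 8.64 ± 0.04 for HDAC9-/- arrays (SD, n = 3, limma, adjusted p = 0.442). Its dimmer probe sets differed by -0.40 to 0.087, all with overlap. The channel gene Vdac1 (0.23) and the nuclease gene Endog (0.34) were higher without passing. In the brightest probe sets of all 3 genes the genotypes did not overlap. The other Vdac1 probe sets differed by -0.061 to 0.20. In the whole list 1 of the 14 genes was lower and 5 were higher without overlap, against 6.04% and 11.0% of all probe sets. The cytochrome c gene Cycs differed by -0.041 in its brightest probe set and by 0.11, without overlap, and 0.13, with overlap, in the others. Apaf1, which forms the apoptosome with cytochrome c, differed by 0.17 in its brightest probe set and by -0.098 in the other. Of the death receptor route 7 of 9 measured genes had negative differences, with a median of -0.036. The receptor gene Fas was lower by 0.20 and its ligand gene Fasl by 0.31, neither passing. Cflar, which encodes the caspase-8 inhibitor FLIP, differed by 0.34 in its brightest probe set. In the other Cflar probe sets the difference was -0.25 to -0.092.

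Among 15 measured regulators of the members 6 had negative and 9 positive differences, with a median of 0.040. Foxo1 (0.16), the kinase gene Akt1 (0.13), whose product phosphorylates Bad, and Fbxw7 (0.33), which marks Mcl1 for degradation, had the smallest p-values among brightest probe sets and did not pass. Over the 6 lists, 0 of 50 measured genes passed in limma, where 0.0133% of all probe sets did. At an unadjusted p below 0.05 there were 2 lower and 7 higher, where 3.23% and 5.55% of all probe sets were.

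**Figure D4:**
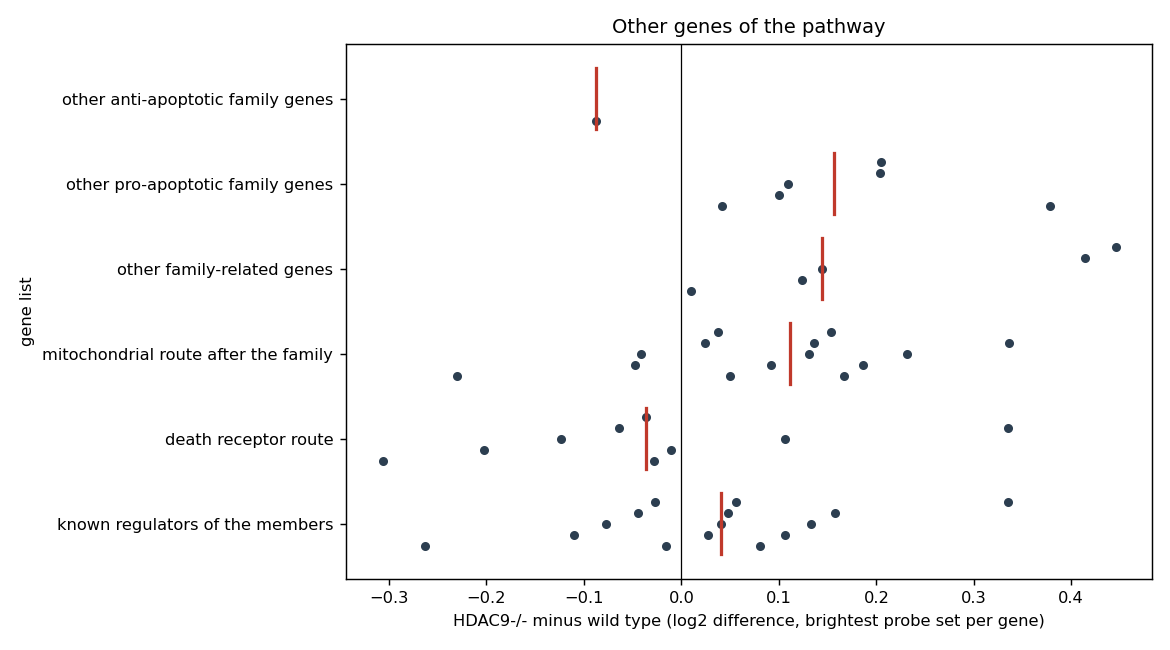
Log2 difference, HDAC9-/- minus wild type, of the brightest probe set of each measured gene (points, spread vertically for legibility) in 6 lists of related genes, with a red bar at each list's median. The medians run from -0.087 (1 gene) to 0.16, and no gene passed the threshold, which 0.0133% of all probe sets passed.

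Transcripts of other cells were present beside these values. Besides the myeloid list, in which all 8 genes were measured, 1 was dimmer than the array-wide median and 5 were higher in HDAC9-/- samples without overlap (11.0% of all probe sets were), the mean level of 5 B cell markers (of 6 listed) was 7.40 to 7.68 for wild type against 7.21 to 7.95 for HDAC9-/- arrays. That of 6 CD8 T and natural killer cell markers was 8.40 to 8.54 and 8.50 to 8.94, of 3 plasma cell markers (of 4) 7.37 to 7.59 and 7.16 to 7.38, and of 4 red cell and platelet markers (of 5) 4.71 to 5.04 and 4.67 to 4.94. Of the plasma cell markers Sdc1 and Tnfrsf17 were dimmer than the array-wide median and overlapped, while Jchain, the joining chain of secreted antibodies, read 11.99 ± 0.06 for wild type against 11.52 ± 0.11 for HDAC9-/- arrays (SD, n = 3), without overlap and without passing (limma, adjusted p = 0.337). T cell markers, 4 of 5 measured, had 10.95 to 11.08 and 10.96 to 10.99. The part of the myeloid transcripts, of Jchain and of the wider Gapdh difference in HDAC9-/- samples, in the values of Bik, Mcl1 and the related genes was not tested.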

How the data were processed

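Total RNA of 6 samples, 3 per genotype, was labelled with biotin after amplification of 100 ng and hybridised to 1 array each, per the labels' protocols. The deposited values are log2 expression values per probe set, which the authors computed with RMA, as the submitters' processing notes list it. Its version and settings are not named there. No further normalization was applied, and aligned array medians were an alternative. The members and gene lists were chosen with earlier results of these data known.

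After 64 control probe sets were left out, 22626 were tested without a filter on brightness. Symbols came from the platform annotation, in which 20380 probe sets carry 1 symbol, 691 several and 1555 none, and were updated through the Entrez identifier for 20351 with the RefSeq gene table of GRCm38.p6. Probe sets with several symbols were not named. The sample titles gave the groups and the replicate numbers. Differences are HDAC9-/- minus wild type, from limma 3.58.1 under R 4.3.3, with genotype as the single term of lmFit and eBayes, Benjamini-Hochberg adjustment over all probe sets and a threshold of 0.05. The fit was tested on simulated data, in which the added changes were larger than the differences of the members other than Bik. That test does not show how often differences as small as theirs would pass. All members were named, up to 3 genes per further list by smallest p of the brightest probe set, and the 5 genes nearest to Bik. Apaf1, Cycs, Foxo3, Htra2, Itgae, Jchain, Sdc1, Tnfrsf4, Tnfrsf17 and the 8 myeloid markers fall outside this rule. They were added after their values were seen, and Foxp3, Il2ra, Ctla4 and Ikzf2 checked the cell type. Upstream sequences are RefSeq's (GRCm38.p6), and motifs were searched on both strands in 250 bases. Alternatives were a second quantile normalization, the aligned medians, a filter on dim probe sets, trended and robust variance, array weights, a replicate block, 1 probe set per gene and leaving out each array. Figures were drawn with matplotlib 3.10.9.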

Additional observations from a re-analysis of the deposited data

How the results depend on the processing

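The count of probe sets past the adjusted threshold over the array was 3. It was 15 with trended and robust variance, 6 with array weights, 1 with the brightest probe set per gene, 5 at an adjusted p below 0.10, and 0 to 6 when single arrays were left out. At an unadjusted p below 0.05 it was 1987, and 3856 had genotypes that do not overlap. With the replicate number as a block the count was 0. Same-numbered arrays deviated together with correlations of only 0.036, 0.099 and -0.25, and 1 of 6 arrays correlated best with its own number, so the numbers were not taken to pair the samples. No probe set of the members other than Bik passed under any of the 13 alternatives in which it was tested, nor did a gene of the 6 related lists under the 6 alternatives run for them. Of the 26 member probe sets other than those of Bik 16, among them all 6 of Mcl1, kept the sign of their difference in every alternative that included them. In the other 10 it turned, in 17 of 311 values. Leaving out 1 array moved the difference by over 1.5 times in 22 of the 26. With array weights the sign turned in Bcl2l1 1420887_a_at (-0.059), Bcl2l11 1426334_a_at (0.047) and Bad 1416583_at (-0.016). The ranges that follow are of the 10 probe sets whose sign turned in any alternative. With single arrays left out the ranges were -0.11 to 0.21 for Bcl2l1 1420887_a_at, -0.16 to 0.0056 for Bcl2l2 1423572_at, -0.016 to 0.16 for Bcl2l2 1430453_a_at, -0.0086 to 0.081 for Bak1 1418991_at, -0.17 to 0.0070 for Bcl2l11 1435448_at, -0.29 to 0.12 for Bcl2l11 1456005_a_at, -0.10 to 0.067 for Bcl2l11 1426334_a_at, -0.0015 to 0.11 for Bid 1417045_at, -0.030 to 0.13 for Bad 1416582_a_at and -0.0054 to 0.11 for Bad 1416583_at. The cause was not tested. For Bik, which was chosen on this difference, the ranges were -0.98 to -0.82 in 1420362_a_at, -0.71 to -0.47 in 1449836_x_at and -0.36 to -0.27 in 1420363_at.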

Other observations

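Probe sets of 1 gene differed in sign for some regulators of apoptosis. Cflar was higher in HDAC9-/- Treg in 1449317_at, at 8.24 ± 0.09 for wild type against 8.57 ± 0.10 for HDAC9-/- arrays (SD, n = 3), and lower in 1424996_at, at 8.08 ± 0.10 and 7.82 ± 0.07. The genotypes did not overlap in either, and the differences of 0.34 and -0.25 did not pass (limma, adjusted p = 0.423 and 0.498). The dimmer Cflar probe sets 1425686_at and 1425687_at differed by -0.15 and -0.092, with overlap. The sources used here do not say which transcripts each probe set detects. Foxo1 likewise differed by 0.16 in 1416981_at and by -0.19 in 1416982_at, both without overlap. In 1416983_s_at and 1456529_at Foxo1 differed by -0.031 and -0.27, with overlap. Htra2 was higher in both probe sets, by 0.19 and 0.24, and Endog by 0.34 and 0.21, each without overlap and without passing. These probe sets were chosen after their values were seen.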
